A study of Malus domestica with 8 samples.

Results

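The 88 features described here are the leaf transcripts of apple (Malus domestica, cultivar 'Gala') that were higher in every library of 3 MdAGG knock-out lines than in every library of non-transformed plants, out of 52311 features in the deposited tables. They were chosen by their own levels in these libraries. Each had a mean of at least 0 on the log2 scale of CPM (reads scaled to a common library total and for library composition, with a prior count of 2). Its lowest value in 6 knock-out libraries lay above its highest value in 2 control libraries, and the mean of the 3 line means exceeded the control mean by at least 1 on the log2 scale, which is 2-fold. A run of 907 features with identifiers from MD14G1000100 to MD14G1091300 was left out, of which 10 met the other conditions. Because these values made the choice, the differences from the controls are given as a description, with no test.

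MdAGG is the apple agglutinin, a lectin, that is, a protein that binds sugar groups. Acibenzolar-S-methyl (ASM) is a synthetic functional analogue of salicylic acid that switches on plant defence genes, and agglutinin transcripts are known among those it induces in apple leaves. CRISPR/Cas9 cuts a chosen DNA sequence, and its imprecise repair disrupts the gene, in plants regenerated from transformed tissue.

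All groups were 'Gala' leaves from plants that had been rooted in vitro, kept 8 weeks in a greenhouse at 22 °C, given an ASM spray of 0.2 g/l, with leaves taken after 3 days. The transformed lines (mdagg-2, then mdagg-3, then mdagg-4) and the non-transformed control wt had 2 libraries each, from leaf bulks of separate experiments according to the design text. No unsprayed plants and no transformed plants with an intact MdAGG were among the libraries, so loss of MdAGG and the passage through transformation and regeneration cannot be told apart. Libraries held between 28591909 estimated reads (mdagg-2 replicate 2) and 36995911 (wt replicate 2). The files pair no identifier with a gene name, and 0 of the 88 identifiers matched the reference table, so features are called by identifier, none is given a role, and neither MdAGG nor leaf markers were checked.

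The 88 features were a small share of a small class. Among 26780 features at the same minimum level and outside the run left out, all 6 knock-out libraries lay above both wt libraries in 494 (1.84%), and 88 of them also differed at least 2-fold (0.329%). In the opposite direction, all 6 lay below both wt libraries in 394 (1.47%), and 17 of those differed at least 2-fold (0.0635%). The directions are not on an equal footing, because the minimum level is a mean over 8 libraries, 6 of them knock-out. It lets in features higher in knock-out libraries more readily than features lower in them. The part of this in the counts was not tested. The log2 difference of the 88, lines minus wt, ran from 1.02 to 3.03 with a median of 1.39, a 2.61-fold ratio, where the median over all 26780 features was -0.02. In bulk leaf RNA, fewer or more cells with a transcript and more of it per cell cannot be told apart.

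All 88 were transcripts of low to moderate abundance, with mean log2 CPM between 0.05 and 3.97. The level bins held 38 of 2685 features between 0 and 1 (1.42%), 25 of 3154 between 1 and 2 (0.793%), 17 of 3994 between 2 and 3 (0.426%) and 8 of 5281 between 3 and 4 (0.151%). Of 8880 features between 4 and 6 and 2786 above 6, 0 were members, although 65 and 19 of these were higher in all 6 knock-out libraries by less. Read counts of the 88 ran from 15 to 1009 in knock-out libraries and from 5 to 377 in wt libraries. Together they took 0.0378% to 0.0446% of the reads of each knock-out library, against 0.0166% and 0.013% in wt. A level near the lower limit could be reached through the knock-out libraries alone, and such a feature had to differ.

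**Figure D1:**
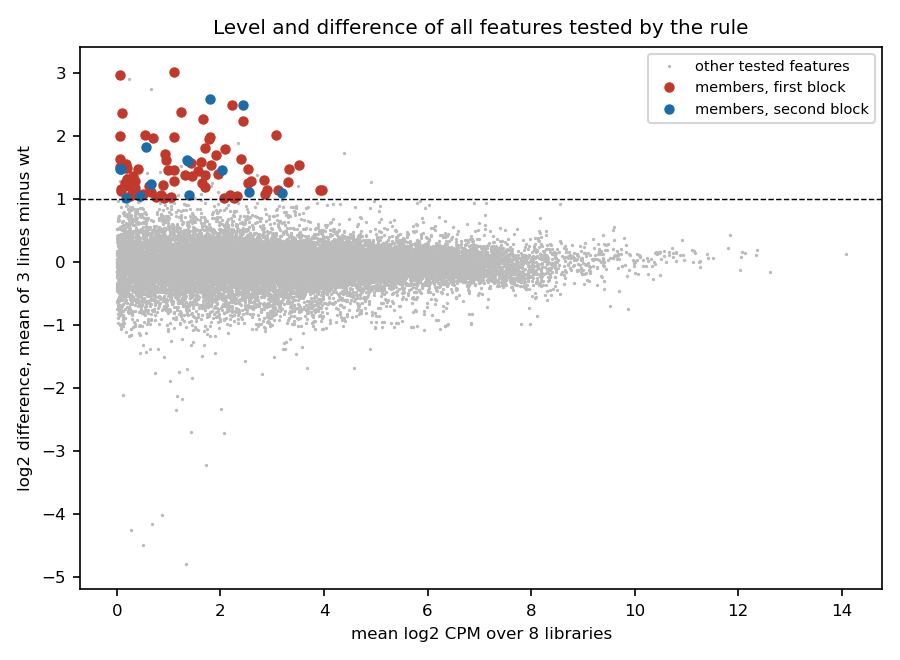
The log2 difference (vertical, mean of the 3 lines minus wt) is plotted against mean log2 CPM over 8 libraries for 26780 features, with a dashed line at 1. The 88 members, coloured by the part of the deposited tables that lists them, all lie left of a mean log2 CPM of 4 and above the dashed line.

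MD13G1190500 had the largest difference. It was at 1.8 and 2.33 CPM for mdagg-2, 2.15 and 1.87 for mdagg-3, 10.2 and 11.9 for mdagg-4, and 0.41 and 0.366 in wt. The mdagg-4 libraries thus stood well above the other knock-out libraries, and the lowest knock-out library was 1.99 log2 units above the higher wt library, the widest distance among the 88.

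MD13G1059300 had few reads in wt. Its knock-out libraries held 56 and 56 reads for mdagg-2, 26 and 55 for mdagg-3 and 55 and 120 for mdagg-4, against 5 and 7 in wt. The log2 difference was 2.97, with line values of 3.14, 2.43 and 3.33 for mdagg-2, mdagg-3 and mdagg-4.

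MD16G1211300 was highest in mdagg-2 and lowest in mdagg-3. Levels were 14.8 and 11.7 CPM for mdagg-2, 1.69 and 3.15 for mdagg-3, 5.36 and 4.71 for mdagg-4, and 1.4 and 0.497 in wt. The first mdagg-3 library was only 0.26 log2 units above the first wt library.

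MD09G1282300 was at 10.1 and 8.09 CPM for mdagg-2, 12.8 and 4.57 for mdagg-3, 11.8 and 5.49 for mdagg-4, and 1.93 and 1.02 in wt. Replicate 2 was the lower library in all 4 groups, and the knock-out and wt libraries stayed 1.22 log2 units apart. MD09G1277700 averaged 7.5 ± 2.1 CPM in the 6 knock-out libraries and 1.23 ± 0.0397 CPM in wt (SD, n = 6 and n = 2), with line differences of 2.13, 2.71 and 2.64. Its lowest knock-out value was 3.59 CPM in the second mdagg-2 library.

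MD06G1016500 spread widely within lines. It had 4.3 and 2.2 CPM for mdagg-2, 2.44 and 5.85 for mdagg-3, 1.71 and 7.63 for mdagg-4, and 1.02 and 0.366 in wt. MD11G1205700 was steadier, at 1.61 ± 0.463 CPM in the knock-out libraries (SD, n = 6), against 0.146 and 0.419 CPM in wt from 5 and 16 reads. MD05G1105200 averaged 4.72 ± 0.953 CPM in the knock-out libraries (SD, n = 6) and 0.939 ± 0.328 CPM in wt (SD, n = 2), with line differences of 2.55, 2.14 and 2.13.

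MD10G1052000 rested on a single wt library. The knock-out libraries lay between 6.21 and 10.4 CPM, while the wt libraries were at 0.439 and 5.55 CPM. The log2 difference of 2.25 became 3.99 against wt replicate 1 alone and 0.5 against wt replicate 2 alone. MD08G1133500 closed the 10 largest with a difference of 2.02, at 4.61 and 1.13 CPM for mdagg-2, 2.51 and 2.48 for mdagg-3, 1.91 and 1.07 for mdagg-4, and 0.556 and 0.366 in wt.

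**Figure D2:**
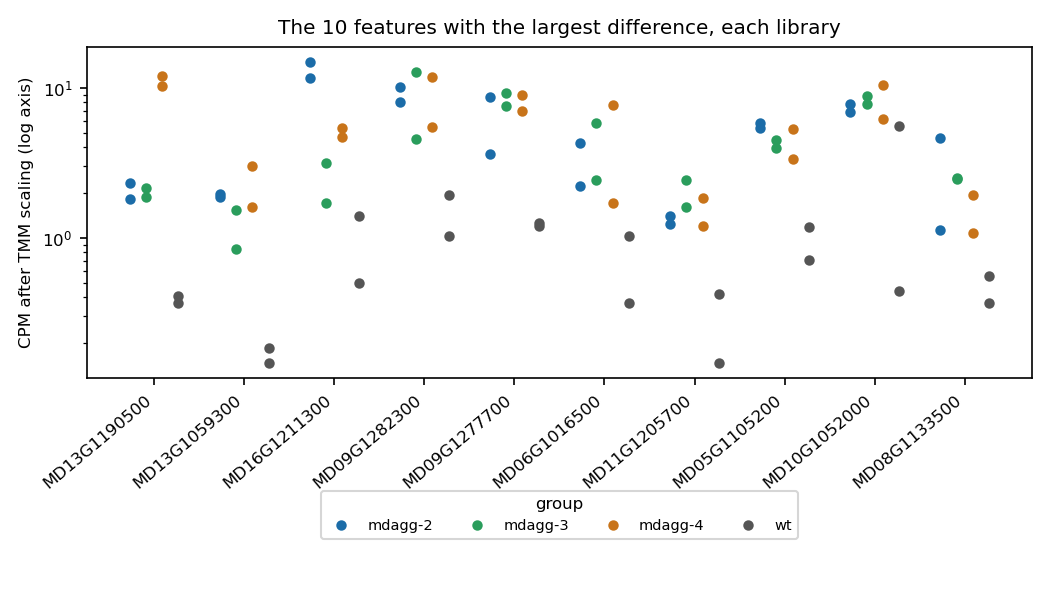
CPM of the 10 features with the largest difference is shown on a log axis, each point a library, with the 3 lines left of wt. Every knock-out point lies above both wt points of its feature, and MD10G1052000 has wt points at 0.439 and 5.55 CPM.

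The distance between the lowest knock-out library and the higher wt library shows how cleanly a feature separated. It was at least 1 log2 unit in 16 of the 88, at least 0.5 in 46 and under 0.1 in 7, with a median of 0.52. The 16 widely separated features include 6 of the 10 with the largest mean difference. Besides those, they include MD08G1025600, with 4.91 ± 0.933 CPM in the knock-out libraries (SD, n = 6) and 1.17 ± 0.0441 CPM in wt (SD, n = 2), a distance of 1.68. MD03G1039900 was 1.22 apart, at 12.3 and 11.4 CPM for mdagg-2, 13.1 and 12.2 for mdagg-3, 14.8 and 8.28 for mdagg-4, and 3.51 and 2.35 in wt.

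**Figure D3:**
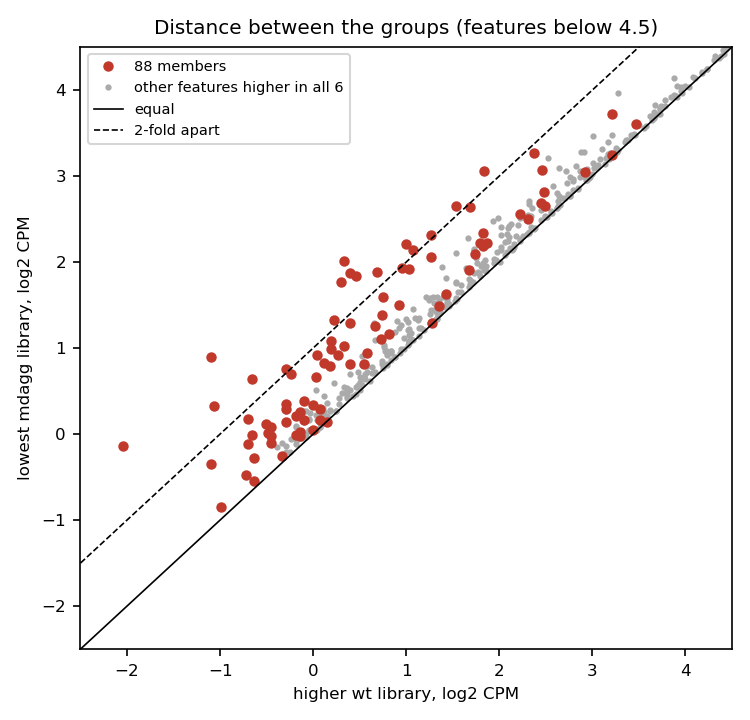
For features higher in all 6 knock-out libraries, the lowest knock-out library (vertical) is plotted against the higher wt library (horizontal), both in log2 CPM up to 4.5. The solid line marks equal levels and the dashed line a 2-fold distance, which 16 of the 88 members reach.

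The wt libraries differed by more than 1 log2 unit in 19 of the 88. The share of all features that did so was not computed. Replicate 2 was the lower of the wt pair in 65 of 88 (73.9%), where it was lower in 48.1% of the 26780 features. The rule used both wt values, so these counts draw partly on the choice of features, and how far was not tested. Over the 88 the median of replicate 2 minus replicate 1 was -0.40 in wt, against -0.15 for mdagg-2, -0.06 for mdagg-3 and -0.09 for mdagg-4. The median log2 difference from wt was accordingly 1.24 among libraries numbered 1 and 1.57 among those numbered 2, and it reached 1 in 56 and 79 of the 88. The condition on the higher wt library was therefore set by wt replicate 1 in 65 features and by wt replicate 2 in 23. Without wt replicate 1 the same rule gave 233 features, 80 of them among the 88, and without wt replicate 2 it gave 132, with 60 of the 88. Leaving out any knock-out library gave between 89 and 101 features, with 79 to 83 of the 88.

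The 8 features with the highest mean log2 CPM were the most read of the 88. Since reads grow with transcript length, levels between features are compared here in TPM, which divides by length. MD13G1259600 was the highest in these terms, at 43.6 ± 14.2 TPM in the knock-out libraries (SD, n = 6) and 19.4 ± 5.95 TPM in wt (SD, n = 2). MD14G1098400 followed at 35.6 ± 12.4 TPM in the knock-out libraries (SD, n = 6) and 12 ± 0.509 TPM in wt (SD, n = 2). Its identifier lies beyond the end of the run that was left out. Its lowest knock-out value was 5.58 CPM, in the second mdagg-4 library, against 4.89 and 4.32 CPM in wt.

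MD03G1039900 was at 28 ± 3.77 TPM in the knock-out libraries (SD, n = 6) and 6.89 ± 1.64 TPM in wt (SD, n = 2). MD17G1155500 and MD05G1359200 had knock-out means of 28.7 and 22.9 TPM, against wt means of 13 and 9.29 TPM. Neither spread much in wt, with SDs of 1.97 and 0.609 TPM.

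MD06G1150400, a longer transcript of 2425 bases, was at 9.39 ± 2.45 TPM in the knock-out libraries (SD, n = 6) and 4.14 ± 0.402 TPM in wt (SD, n = 2). MD01G1046700 and MD10G1309900 overlapped nearly with wt. For MD01G1046700 the lowest knock-out library, at 9.42 CPM, was next to the first wt library at 9.22 CPM, while the second wt library was at 2.72 CPM. For MD10G1309900 these values were 8.23 CPM in the lowest knock-out library, and 7.49 and 2.93 CPM in wt. Against wt replicate 1 alone the log2 differences of these features were 0.68 and 0.48.

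**Figure D4:**
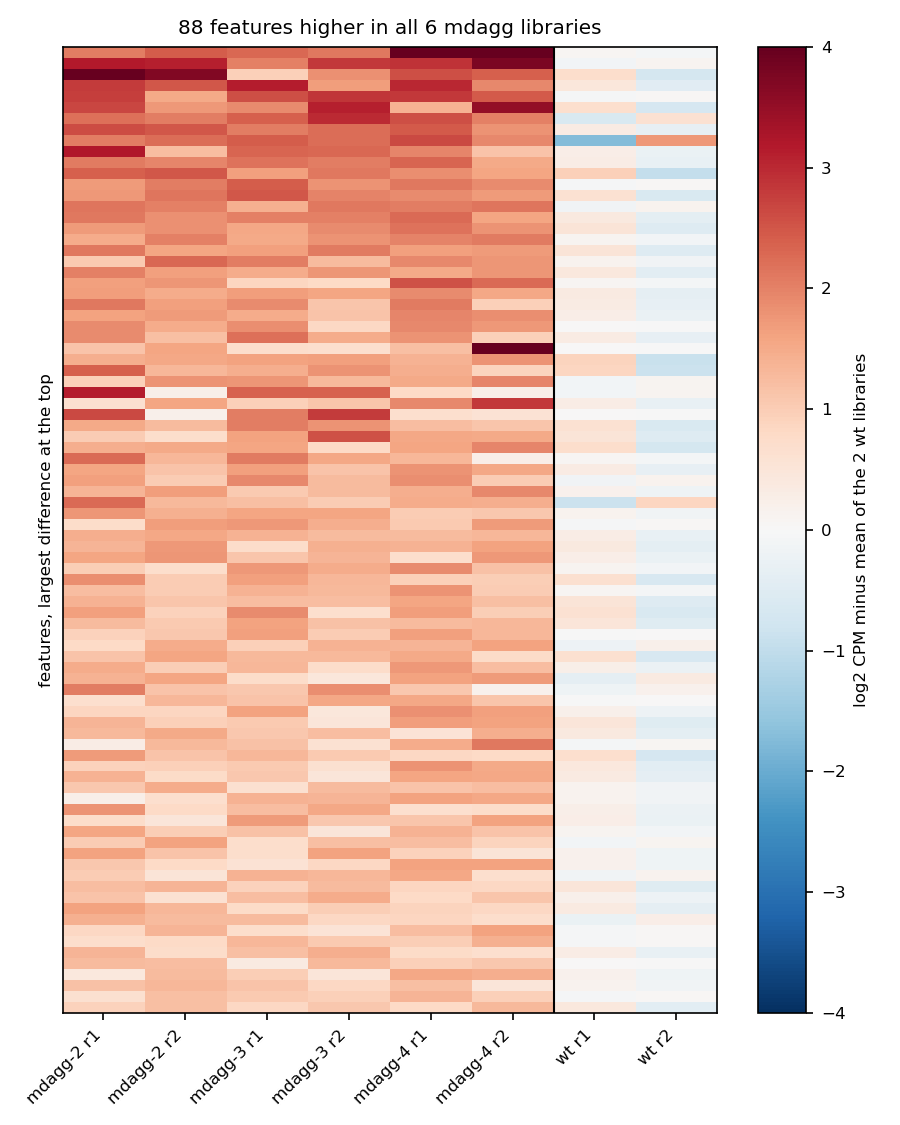
Each row is a feature of the 88, ordered by difference, and each column a library, coloured by log2 CPM minus the mean of the 2 wt libraries, with colours limited to 4 either way. The 6 knock-out columns left of the black line are red throughout, and in most rows the wt replicate 2 column is bluer than wt replicate 1.

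The 3 lines were next compared with each other, a contrast that the rule did not set directly. The rule kept out features that were low in any line. A line far above the others could also bring a feature over the 2-fold limit. Shares of the 88 in the comparisons of lines therefore draw partly on values that the rule used, and are given as description. The log2 differences from wt had medians of 1.41 (mdagg-2), 1.35 (mdagg-3) and 1.5 (mdagg-4), with all 3 at least 1 in 48 of the 88. The lines share the wt libraries, so these medians are not separate measurements. The highest line mean was that of mdagg-2 for 26 features, mdagg-3 for 27 and mdagg-4 for 35. Shares over all features were not computed for these counts, so no line is singled out by them.

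In edgeR's quasi-likelihood F test among the lines, 0 of the 88 had an adjusted p under 0.05, as against 1 of all 32373 features tested (0.00309%). All 88 had passed that test's low-count filter. Of the 88, 8 had an unadjusted p under 0.05 (9.09%), where 3.17% of all features had one. DESeq2's likelihood ratio test called 2 of the 88, where it called 0.192% of features. These were MD13G1190500 (adjusted p = 4.83e-12, and 0.268 in edgeR) and MD16G1211300 (adjusted p = 0.00367, and 0.889 in edgeR).

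The lines were also compared in 3 pairs. Between mdagg-3 and mdagg-2, edgeR called 0 of the 88 (background 0.00309%), with 5 at an unadjusted p under 0.05 (background 1.69%), and DESeq2 called MD16G1211300 (background 0.0363%). Its edgeR log2 difference, mdagg-3 minus mdagg-2, was -2.45 ± 0.48 (SE, adjusted p = 1). Between mdagg-4 and mdagg-2, edgeR again called 0 (background 0.00309%), with 5 at an unadjusted p under 0.05 (background 4.44%), and DESeq2 called MD13G1190500 (background 0.0876%), whose edgeR log2 difference was 2.41 ± 0.27 (SE, adjusted p = 0.292). Without mdagg-2 replicate 2, edgeR called 3 of the 88 and 224 of all features in that pair. Between mdagg-4 and mdagg-3, edgeR called 0 of the 88 and 0 of all features (0%), with 10 of the 88 at an unadjusted p under 0.05 (background 6.11%). Of those 10, 8 were higher in mdagg-4 (background 2.95%) and 2 lower (background 3.16%). DESeq2 called MD13G1190500 in this pair too (background 0.167%), at an edgeR log2 difference of 2.46 ± 0.27 (SE, adjusted p = 0.569). The adjusted p values were taken over all features of each pair.

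A count of separated lines needs no model, but the choice of the 88 bears on it as well. Both mdagg-4 libraries lay above the other 4 knock-out libraries in 14 of the 88 (15.9%, where 8.46% of the 26780 features did), both mdagg-2 libraries in 5 (background 4.04%) and both mdagg-3 libraries in 3 (background 4.29%). Both mdagg-3 libraries lay below the other 4 in 9 (10.2%, background 4.34%), both mdagg-4 libraries in 7 (background 7.83%) and both mdagg-2 libraries in 5 (background 4.41%).

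MD04G1134900 showed the lines in separate steps, at 1.32 and 1.46 CPM for mdagg-2, 0.749 and 0.724 for mdagg-3, 2.52 and 2.09 for mdagg-4, and 0.41 and 0.366 in wt. Its edgeR log2 difference, mdagg-4 minus mdagg-3, was 1.64 ± 0.33 (SE, adjusted p = 0.691). MD05G1218000 had 0.763 and 1.5 CPM for mdagg-2, 0.945 and 1.06 for mdagg-3, 1.91 and 3.67 for mdagg-4, and 0.585 and 0.366 in wt. In MD05G1196800 a single library made the difference between lines, with 861 reads in mdagg-4 replicate 2, 57 to 105 reads in the other 5 knock-out libraries, and 39 and 42 reads in wt.

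At the other end were features with nearly the same level in all lines. MD11G1016700 was at 4.06 ± 0.313 CPM in the knock-out libraries (SD, n = 6), against 1.87 and 1.23 CPM in wt, with the smallest SD of log2 CPM over the 6 libraries, 0.11. MD12G1176300 was at 7 ± 0.722 CPM in the knock-out libraries (SD, n = 6), against 2.84 and 1.7 CPM in wt. MD09G1140600 and MD10G1091500 came next, with SDs of 0.14 and 0.17. Their wt libraries were less even, with 30 and 8 reads for MD09G1140600 and 52 and 27 reads for MD10G1091500. Against wt replicate 1 alone their log2 differences were 0.67 and 0.77, and against wt replicate 2 alone MD09G1140600 reached 2.47. Over the 88 the median SD was 0.38, where features in the same range of levels had 0.32. Levels within the range were not matched. A mean log2 CPM between 0 and 1 was found for 38 of the 88, against 2685 of 14910 features in the range.

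Libraries were also compared by replicate number. The rule did not use the number, but the comparison takes in the wt pair, whose values the rule used. In that pair replicate 2 was the lower library in 65 of the 88. The direction of the counts from the fits therefore draws partly on the choice of features, and how far was not tested. In an edgeR fit with group and number, 0 of the 88 and 0 of all features (0%) had an adjusted p under 0.05 for number 2 against number 1. An unadjusted p under 0.05 was found for 13 of the 88 (14.8%, background 11.6%), of which 12 were lower in the libraries numbered 2 (background 6.44%) and 1 was higher (background 5.17%). DESeq2, which gave an adjusted p to 63 of the 88, called MD09G1282300 (adjusted p = 0.0448, background 1.09%), with an edgeR log2 difference of -0.96 ± 0.23 (SE, adjusted p = 0.414). The next features by edgeR's p were MD15G1017700, MD02G1125800 and MD14G1098400, at -0.73 ± 0.17, -1.0 ± 0.25 and -0.69 ± 0.18 (SE), each with an adjusted p of 0.414. Replicate 2 lay below replicate 1 in all 3 lines in 24 of the 88 (27.3%, background 23.5%) and above it in 10 (11.4%, background 20.5%).

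The deposited tables list features in 2 blocks, each sorted by identifier, and the 88 were unevenly placed in them. The second block holds 7226 features with a median length of 117 bases, where the first has a median of 1270, and the files do not say what sets the blocks apart. Of the 88, 14 were in the second block (15.9%), where 2.05% of 14910 features in the members' range of levels were. Within that range, all 6 knock-out libraries lay above both wt libraries in 39 of 306 second-block features (12.7%) and 370 of 14604 first-block features (2.53%). They lay below both in 6 second-block (1.96%) and 270 first-block features (1.85%). The minimum level, a mean mostly of knock-out libraries, favoured the higher direction here too. The comparison of blocks was chosen after the values were seen and has no test. Features of the blocks were not matched for level within the range. The second block took 1.29% to 2.21% of reads in knock-out libraries, and 1.67% and 1.9% in wt. Within the range of levels, its median difference from the wt mean lay between -0.04 and 0.19 in the 6 knock-out libraries, lowest in mdagg-4 replicate 2. The median of the first block lay between -0.03 and 0.004. It was below that of the second block in every knock-out library except mdagg-4 replicate 2.

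**Figure D5:**
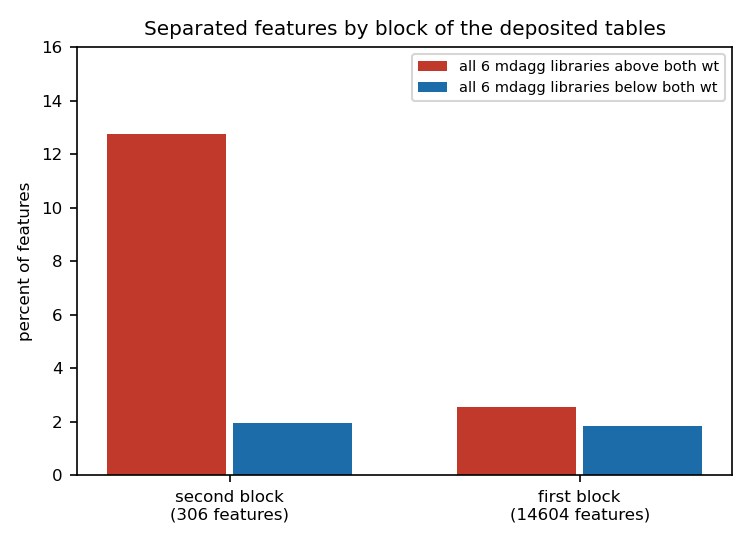
Bars give the percent of features whose 6 knock-out libraries all lay above (red) or all below (blue) both wt libraries, for the 2 blocks of the deposited tables in the members' range of levels. The red bar is 12.7% in the second block and 2.53% in the first, and the blue bars are 1.96% and 1.85%.

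The 14 second-block members had log2 differences of 1.03 to 2.59 with a median of 1.48, against a median of 1.38 in the 74 others. They include MD16G1211300 and MD09G1282300, among the largest differences, and MD17G1155500, among the most read. The shortest was MD03G1063400 with 229 bases and the longest MD10G1197000 with 1135 bases, a feature named for its length alone.

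Transcript length was compared in the same way, after the values were seen. The median length of the 88 was 880.5 bases, against 1430 over the 14910 features in the same range of levels, and 48 of 88 were under 1000 bases (54.5%, background 27.2%). The excess was present within the first block, where 35 of 3808 features under 1000 bases were members (0.919%) and 39 of 10796 longer ones (0.361%). In the second block 13 of 247 shorter features (5.26%) and 1 of 59 longer ones (1.69%) were members. Features were not matched for level within the range in any of these comparisons. Members made up 1.42% of features with a mean log2 CPM between 0 and 1, and 0.151% between 3 and 4. The part of level in the excess of short features was not tested. Estimated reads were more than 1e-06 of a read away from a whole number in at least 1 library for 66 of the 88 (75%, background 68.2%), as happens where reads are divided between similar transcripts. Levels of those 66 are uncertain to that extent, and the part of length or of divided reads in the differences was not tested.

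In the apple nomenclature the digits after MD stand for the chromosome, or for unplaced sequence where they are 00, and on a chromosome the following number rises along it. The files give no coordinates. The 88 were spread over all 18 fields. The highest share was in field 09, with 11 of 1486 features (0.74%), and the next in field 13, with 9 of 1473 (0.611%), while fields 00, 01 and 07 held 1 each, of 859, 1221 and 1557 features.

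Neighbouring identifiers were found for 3 of the 88, and how many an equal number of other features would give was not tested. With at most 3 features between them, a single set of 3 was found, MD02G1125700, MD02G1125800 and MD02G1125900, which follow each other directly. MD02G1125700 was at 1.08 and 0.865 CPM for mdagg-2, 1.86 and 1.53 for mdagg-3, 2.06 and 1.22 for mdagg-4, and 0.556 and 0.471 in wt. MD02G1125800 was at 1.98 and 1.16 CPM for mdagg-2, 2.35 and 0.975 for mdagg-3, 2 and 1.22 for mdagg-4, and 0.936 and 0.366 in wt. MD02G1125900 was at 1.35 and 1.16 CPM for mdagg-2, 1.76 and 1.28 for mdagg-3, 1.36 and 1.42 for mdagg-4, and 0.761 and 0.366 in wt. Their log2 differences of 1.33, 1.29 and 1.29 were nearly equal. The next identifier, MD02G1126000, missed the minimum level with a mean of -0.09, but its 6 knock-out libraries held 27 to 49 reads and lay above wt, with 19 and 13 reads, and its log2 difference was 1.23. It was named after its values were seen. Leaving out wt replicate 2 lowered the differences of MD02G1125800 and MD02G1125900 to 0.68 and 0.81.

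The authors' deposited table compares each line with wt by DESeq2 on the same libraries, so its calls describe the same contrast and nothing is read from them. At an adjusted p under 0.05, members given as higher in the authors' deposited table numbered 7 for mdagg-2, 26 for mdagg-3 and 25 for mdagg-4. Over all features with an adjusted p, the authors' deposited table lists as higher 12 for mdagg-2 (0.0365%), 117 for mdagg-3 (0.363%) and 51 for mdagg-4 (0.143%). The authors' deposited table called 49 of the 88 in no line, 25 in 1 line, 9 in 2 lines and 5 in all 3, and those 5 are all that it calls higher in 3 lines (0.0156%). They are MD13G1059300, MD09G1282300, MD05G1105200, MD03G1039900 and MD08G1025600. For MD03G1039900 the authors' deposited table gives log2 fold changes of 2.02, 2.11 and 1.98 in mdagg-2, mdagg-3 and mdagg-4. MD13G1190500 missed the list of 5 in mdagg-2 alone, where the authors' deposited table has a log2 fold change of 2.42 with an adjusted p of 0.158.

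The limit of 2-fold cut through a continuous range. Just inside it were MD15G1402300, MD12G1217700 and MD03G1063400, with log2 differences of 1.02, 1.02 and 1.03. The difference of MD15G1402300 was 0.59 without wt replicate 2. Just outside were MD16G1232900, MD11G1090100 and MD00G1157500, with 0.997, 0.99 and 0.98.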

How the data were processed

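The members and lists were chosen with earlier results of these data known. The authors deposited 1 table per library in the column layout of Salmon, with length, effective length, TPM and an estimated count of reads (expected count, not normalized, 67.9% of values exactly whole), per the file headers. TPM was scaled by the authors' run, per the file headers. Salmon and DESeq2 are named in the submitters' processing notes, while their versions, the genome build and the annotation were not given in the sources used here. Log2 fold changes and adjusted p-values come unchanged from the authors' deposited table of DESeq2 comparisons.

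Estimated counts were rounded, scaled by TMM and turned into log2 CPM (prior count 2) for the rule. Tests used edgeR 4.0.16 in R 4.3.3 (quasi-likelihood F test) on 32373 features kept by filterByExpr, with Benjamini-Hochberg adjustment and a threshold of 0.05. Comparisons of lines used group means of 8 libraries, with 4 residual degrees of freedom. The fit for replicate number also held a term for the number, which left fewer. A standard error is the log2 difference divided by the square root of F. DESeq2 1.42.0, RLE scaling, no filter, the replicate number as a block, 6 libraries only and each library left out were the alternatives. Counts of the libraries of a group differed beyond sampling noise (chi-square per feature 48.7 to 92.8). Libraries of a group are described as separate experiments, and p-values between lines set a difference against the spread between such libraries. For the replicate number, the difference tested lies between libraries of a group, and p-values set it against the spread left after group and number.

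Named features are the members with the 10 largest differences, the 8 highest mean log2 CPM, the 5 and 4 smallest p among lines and between replicate numbers, the 4 smallest SDs over knock-out libraries, the 3 on each side of the 2-fold limit, those in neighbouring sets, and those the authors' deposited table calls higher in all 3 lines. A reference table of assembly GDT2T_hap1 matched 0 of 52311 identifiers, so lists of leaf markers and defence genes had no members and were not used. No sequences were printed, since the identifiers could not be matched to any.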

Additional observations from a re-analysis of the deposited data

How the results depend on the processing

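The count of 88 features was 91 with RLE and 92 with upper-quartile scaling, 86 with a prior count of 0.5 and 88 with counts not rounded. With log2(TPM + 0.1) in place of log2 CPM it was 137, of which 80 were among the 88, and the cause was not tested. With each library left out in turn it lay between 89 and 233. The number of the 88 that differed among the 3 lines was 0 in edgeR, 1 without the low-count filter (4 of all features) and 2 in DESeq2. Between mdagg-3 and mdagg-2, mdagg-4 and mdagg-2, and mdagg-4 and mdagg-3 it was 0 in edgeR and 1 in DESeq2 each, and so it was for replicate number 2 against 1. With each library left out it stayed at 0 in these comparisons, except between mdagg-4 and mdagg-2, where it ranged from 0 to 3, and a line left with 1 library was assumed to vary like the other groups. The replicate block gave 0 in each comparison of lines. The labels do not say whether a number marks the same experiment in each group. The correlation of replicate deviations between groups ran from -0.31 to 0.53, so the numbers were not used as pairs. Of 360 values of the 36 named features, 335 moved by less than the replicate SD and 0 changed direction. The 25 that moved further all came with a wt library left out. Much of this was fixed in advance. Leaving out a knock-out library shifts only 1 of the 3 line means, too little to exceed that SD except through rescaling. Each named feature has every knock-out library above both wt libraries, so leaving out a library could hardly change the direction. These counts are thus no measure of stability. The 360 values ran from 0.48 to 3.99.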
